A study of Mus musculus with 16 samples.

Results

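The vomeronasal organ (VNO) houses sensory neurons whose axons run to the accessory olfactory bulb, and 10 genes for receptors, ligands and adhesion molecules that guide and bundle these axons were examined here. They were the listed genes *Nrp2*, *Robo1*, *Robo2*, *Slit1*, *Epha5*, *Efna5*, *Kirrel2*, *Kirrel3*, *Ncam1* and *Ncam2*, and all 10 were found among the 24340 genes that had both counts and RPKM (reads per kilobase of gene length, scaled to library size). Axons of apical vomeronasal neurons end in the anterior part of the accessory bulb and axons of basal neurons in its posterior part. Secreted Slit and semaphorin proteins repel axons that carry Robo and neuropilin receptors, ephrins and Eph receptors signal by contact between cells, and Kirrel and Ncam proteins are immunoglobulin-type cell surface molecules by which like axons adhere. In this system neuropilin 2 and Ncam2 are known from apical neurons and Robo2 from basal neurons.

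The RNA came from the VNOs of mice of a selection experiment on voluntary wheel running, founded from the outbred Hsd:ICR strain. The 4 High Runner (HR) lines, numbered 3, 6, 7 and 8, were bred for running and the 4 Control lines, numbered 1, 2, 4 and 5, were bred without that selection. Each line gave 1 male and 1 female library, each a pool of 3 mice aged 12 weeks from generation 88, so the study holds 16 libraries in 4 groups of 4. No agent or engineered allele was used. In a pool the animals cannot be told apart, and in whole tissue fewer cells of a type and less RNA per cell cannot be told apart either.

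Counts on genes ran from 15998552 to 70875276 per library. The tissue label was checked against mature vomeronasal neuron markers: *Omp* had a median of 1975 CPM (counts scaled to library size), *Gnai2*, of apical neurons, 1055 and *Gnao1*, of basal neurons, 426. The channel gene *Trpc2* was listed at 0 counts in all 16 libraries although its median RPKM was 322. The female Control library of line 4 stood apart by keratin genes, whose summed level was 714.5 CPM against 37.9 to 115 in the other libraries, and the calls of members that use it are given without it as well. The deposited tables divide by sex and the sequencing may do so too, so sex and run cannot be told apart.

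All 10 genes were well above the floor of the assay in every library, with the smallest count at 545, for *Ncam2* in the female Control library of line 5. By mean RPKM over the 8 lines, they lay between percentile 70.4 (*Slit1*) and percentile 97.9 (*Kirrel2*) of the genes. *Kirrel2* was the highest at 131 ± 30.8 RPKM (SD, n = 8 lines), followed by *Ncam1* at 74.9 ± 9.24 and *Efna5* at 47.3 ± 7.24. A middle group held *Kirrel3* at 31.5 ± 10.2, *Nrp2* at 30.6 ± 2.96, *Robo1* at 25.9 ± 2.40 and *Robo2* at 21.4 ± 1.56. The lowest were *Ncam2* at 12.6 ± 2.11, *Epha5* at 11.7 ± 2.16 and the ligand gene *Slit1* at 10.8 ± 1.33. In 3 steps, this order was free of overlap between the ranges of line means, namely *Kirrel2* over *Ncam1*, *Ncam1* over *Efna5* and *Robo2* over *Ncam2*. The ranges of the other neighbours overlapped, although *Efna5* was above *Kirrel3*, *Nrp2* above *Robo1* and *Robo1* above *Robo2* within 8 of 8 lines.

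In the GENCODE M21 annotation of GRCm38, *Kirrel3* spans chr9:34485894-35036716 and *Kirrel2* chr7:30447534-30457690, *Ncam2* lies at chr16:81200697-81626828, and *Epha5* and its partner gene *Efna5* lie at chr5:84054761-84417382 and chr17:62604184-62881317. *Robo1*, *Robo2* and *Ncam2* share chromosome 16 and *Kirrel3* and *Ncam1* chromosome 9, while *Nrp2* is on chromosome 1 and *Slit1* on chromosome 19. The exons of 9 of the 10 genes overlapped no exon of another annotated gene. *Ncam1* shares 417 exonic bases (4.81%) with the antisense gene *Gm11149*, and since the strand setting of the counting is not given in the sources used here, reads there could belong to either.

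**Figure D1:**
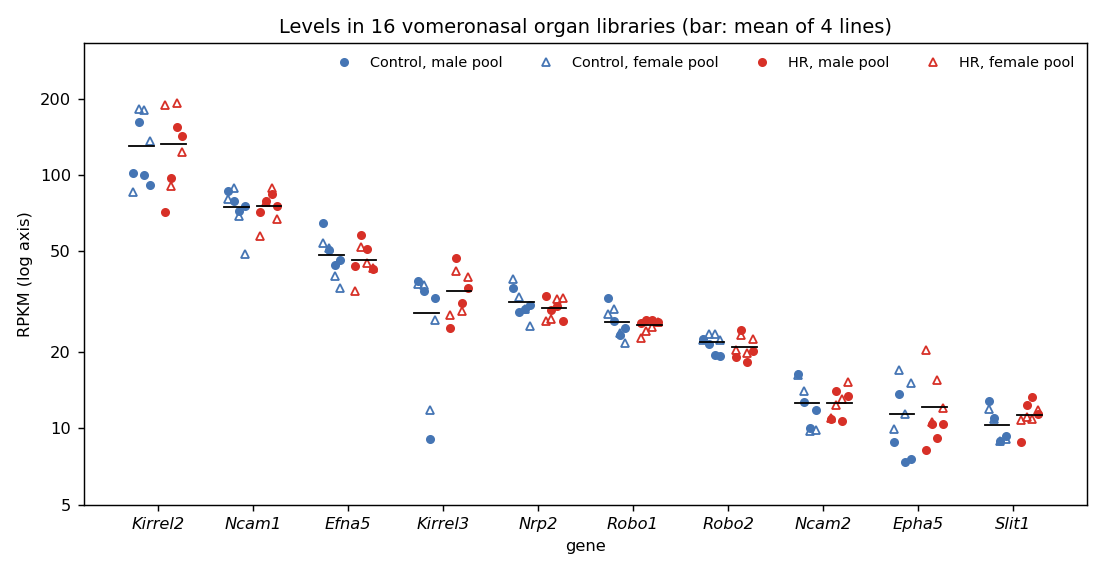
RPKM (log axis) of the 10 genes in 16 VNO libraries, with 1 point per pool of 3 mice, colour for linetype, filled circles for male and open triangles for female pools, and a bar at the mean of 4 lines. *Kirrel2* stands highest, HR and Control points overlap for all 10 genes, and the pair of low *Kirrel3* points (9.06 and 11.85 RPKM) belongs to Control line 4.

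The receptor genes *Nrp2* and *Robo2*, known from apical and basal neurons respectively, were among the steadiest of the 10. In Control lines 1, 2, 4 and 5, *Nrp2* stood at 35.8, 28.8, 29.5 and 30.6 RPKM in males and at 38.9, 32.8, 29.6 and 25.4 in females. In HR lines 3, 6, 7 and 8, it stood at 33.4, 29.3, 30.5 and 26.6 RPKM in males and at 26.6, 27.1, 32.4 and 32.7 in females. Line 1 was the highest in both sexes, and the linetypes overlapped. *Robo2* stood at 22.4, 21.5, 19.5 and 19.3 RPKM in Control males, 22.4, 23.5, 23.6 and 22.3 in Control females, 19.2, 24.5, 18.3 and 20.1 in HR males and 20.4, 23.4, 19.8 and 22.4 in HR females, in the same order of lines. Its highest line mean was 1.26 times its lowest, the narrowest span of the 10 genes, against 1.33 times for *Nrp2*. The ratio of *Nrp2* to *Robo2* RPKM was 1.35 to 1.67 in Control lines and 1.18 to 1.65 in HR lines. *Robo1*, another Slit receptor gene, ranged from 21.7 to 32.6 RPKM over the Control libraries and from 22.7 to 26.7 over the HR libraries. *Slit1* ranged from 8.88 to 12.8 RPKM in Control and from 8.85 to 13.3 in HR libraries, and *Ncam1* from 48.9 to 88.3 and from 57.4 to 88.7 RPKM.

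The first comparison of the design asked whether selection for running went with a different level of these genes in the VNO. For HR against Control lines, none of the 10 genes passed the test, and each linetype's range of line means overlapped the other's. The share of all genes whose ranges overlap is not given here, so the overlap only describes these values. In edgeR's quasi-likelihood test with sex and linetype as terms, 0 of 10 had an adjusted *p* under 0.05, beside 0.0242% of all 16507 genes tested, and 0 of 10 had an unadjusted *p* under 0.05, beside 3.3% of all genes. DESeq2, with no filter on low counts beforehand, called 30 of 21766 genes (0.138%), none of them among the 10. The median size of the log2 fold change was 0.06 over the 10 genes and 0.07 over all genes tested, with 4 of the 10 above 0 and 6 below. The largest value was that of *Kirrel3*, at 34.7 ± 8.01 RPKM (SD, n = 4 lines) in HR lines and 28.4 ± 12.4 in Control lines, which gave 0.28 on the log2 scale (SE 0.27, adjusted *p* = 0.9997). This value was 0.0005 without line 4, 0.14 without line 6 and 0.16 without the keratin-rich library, 0.44 without line 1, and 0.42 in limma-voom with the line as a block, and it passed in none of these fits. *Slit1* had 0.12 (SE 0.09), *Epha5* 0.08 (SE 0.16) and *Kirrel2* 0.05 (SE 0.22). *Nrp2* had a log2 fold change of -0.07 (SE 0.08), *Efna5* -0.06 (SE 0.11), *Robo2* -0.05 (SE 0.06) and *Robo1* -0.04 (SE 0.07), and *Ncam1* and *Ncam2* lay within 0.01 of 0 (SE 0.11 and 0.12).

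In males alone and in females alone 0 of 10 genes passed, beside 0% of 16361 and of 16326 genes tested, and the test for a difference between the sexes in this contrast called none of the 10 either, beside 0% of 16757 genes. At an unadjusted *p* under 0.05 the edgeR test gave 1.12% of all genes in males, 1.94% in females and 0.46% for the interaction, with none of the 10 among them. DESeq2, again without that filter, called 13 of 21280 genes in males (0.0611%), 6 of 21171 in females (0.0283%) and 0 of 21766 for the interaction. *Kirrel3* had a log2 fold change of 0.27 (SE 0.40) in males and 0.29 (SE 0.33) in females.

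**Figure D2:**
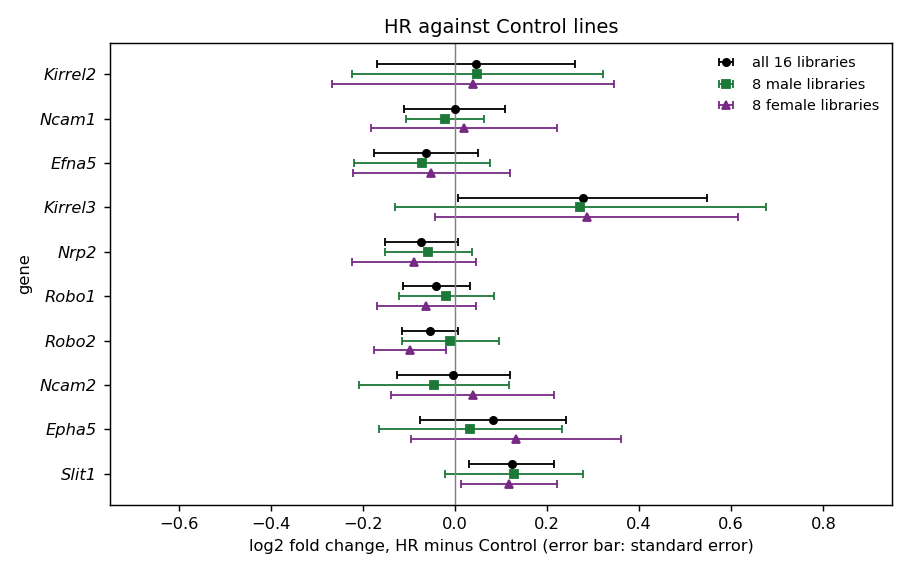
Log2 fold change of HR over Control lines for the 10 genes, from all 16 libraries (black), the 8 male (green) and the 8 female (purple) libraries, with standard errors as bars. All values lie between -0.10 and 0.29, and none passed the test.

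The next comparison asked whether single lines differed. A joint *F* test of the line differences within both linetypes takes the male and female library of a line as replicates. It does not tell which linetype holds a difference. *Kirrel3*, *Ncam2* and *Efna5* differed among lines in this test. These 3 of 10 genes passed, beside 27.7% of 17181 genes tested, so the share was near that of all genes, and 6 of 10 had an unadjusted *p* under 0.05, beside 43.9%. The largest fitted difference between lines of a linetype was 1.86 on the log2 scale for *Kirrel3*, 0.74 for *Ncam2* and 0.54 for *Efna5*. Its median was 0.50 over the 10 genes and 0.54 over all genes. The adjusted *p* of the joint test, in edgeR's quasi-likelihood fit, was 0.0002 for *Kirrel3*, 0.0081 for *Ncam2* and 0.0102 for *Efna5*. It does not test the largest difference by itself. The adjusted *p* was 0.0628 for *Robo1*, 0.0634 for *Slit1*, 0.108 for *Ncam1*, 0.123 for *Robo2*, 0.175 for *Kirrel2*, 0.242 for *Epha5* and 0.342 for *Nrp2*. Of these, DESeq2 called *Robo1*, *Slit1*, *Ncam1* and *Robo2*, making 7 of 10 beside 33.6% of 21766 genes. That fit had no filter on low counts beforehand, so its share is not over the same genes as the 27.7% of edgeR. Markers of neurons and glia differed among lines as well, with 3 of 3 tested mature neuron markers (*Omp*, adjusted *p* = 0.0468, *Gnai2*, 0.0226, and *Gnao1*, 0.0492), 1 of 4 immature neuron markers (*Stmn2*, 0.0121) and the glia markers *Sox10* (0.0018) and *Fabp7* (0.0253). Over the libraries the sums ran from 2287 to 4501 CPM for mature neurons and 376 to 676 for immature neurons, and the part of these markers in the line differences was not tested. Without the keratin-rich library the largest difference was 2.09 for *Kirrel3*, 0.71 for *Ncam2* and 0.54 for *Efna5*, and all 3 passed.

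*Kirrel3*, a Kirrel adhesion gene that sorts axons of vomeronasal neurons, was low in both libraries of Control line 4. In Control lines 1, 2, 4 and 5 it stood at 38.0, 34.9, 9.06 and 32.6 RPKM in males and at 37.2, 36.7, 11.85 and 26.8 in females. In HR lines 3, 6, 7 and 8 it stood at 24.9, 47.0, 31.3 and 35.8 RPKM in males and at 27.9, 41.7, 28.9 and 39.7 in females. The pools of line 4 did not overlap the other 14 libraries, whose lowest was 24.9 RPKM, and the highest line mean (line 6) was 4.24 times that of line 4. The share of all genes whose line 4 pools lie apart in this way is not given here, so this only describes the values. Each line was then set against the other 3 lines of its linetype, a contrast chosen after the values were seen. Line 4 was 3.30-fold lower in *Kirrel3* than the other Control lines (log2 -1.72, SE 0.12, adjusted *p* = 4.97e-05 in edgeR), and 115 of 17181 genes (0.669%) passed the test in line 4 at 2-fold lower or more. Without the keratin-rich female library the log2 difference was -1.95, with line 4 then 1 library that is assumed to vary like those of the other lines. Reads with a mismatch were dropped by the authors, so reads over a variant carried by a line are missing from these counts, and whether this touches *Kirrel3* in line 4 was not tested. The summed mature neuron markers were 3285 CPM in the male and 3369 CPM in the female library of line 4, inside the range of the others (2287 to 4501 CPM). Within a sex, the male value was below the other Control males (3454 to 4501 CPM) and the female value inside the other Control females (2287 to 3726 CPM). The part of neuron content in the *Kirrel3* level of line 4 was not tested. Cartilage and bone genes summed to 150.9 and 173.5 CPM there, against 42.5 to 172 elsewhere, and their part in the result was not tested. The lines still differed with line 4 left out (largest difference 0.75, adjusted *p* = 0.0074). The contrasts share lines, so the higher *Kirrel3* of lines 1 (0.76, SE 0.11) and 2 (0.66, SE 0.11) was measured against a mean that holds line 4. Without the keratin-rich library these differences were 0.83 and 0.73, and both passed. Among HR lines, *Kirrel3* was lower in line 3 (-0.50, SE 0.11, adjusted *p* = 0.017) and higher in line 6 (0.50, SE 0.11, adjusted *p* = 0.0334).

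*Ncam2* and *Efna5* were highest in line 1. Both lay above the mean of the 8 lines in Control lines 1 and 2 and below it in lines 4 and 5. HR lines 3 and 6 lay on opposite sides of that mean for both genes. *Ncam2* stood at 16.4, 12.7, 9.99 and 11.8 RPKM in Control males, 16.2, 14.00, 9.74 and 9.88 in Control females, 10.85, 14.04, 10.7 and 13.4 in HR males and 10.98, 12.4, 13.1 and 15.2 in HR females, in the order of lines given above. Line 1 was above the other Control lines in both sexes (0.53, SE 0.09, adjusted *p* = 0.0077) and line 4 below them (-0.45, SE 0.09, adjusted *p* = 0.021), and without the keratin-rich library, which leaves line 4 with 1 library, these differences were 0.52 (adjusted *p* = 0.018) and -0.43 (adjusted *p* = 0.1395). Without line 1, the lines did not differ past the threshold (adjusted *p* = 0.0717). *Efna5*, the gene of a ligand of Eph receptors such as that of *Epha5*, stood at 64.6, 50.6, 44.0 and 46.2 RPKM in Control males, 54.1, 51.5, 40.0 and 35.65 in Control females, 43.7, 57.7, 51.0 and 42.6 in HR males and 34.9, 51.8, 44.8 and 43.0 in HR females. It was higher in line 1 (0.41, SE 0.09, adjusted *p* = 0.0242, and 0.42 without the keratin-rich library) and lower in line 3 (-0.32, SE 0.09, adjusted *p* = 0.0327). In line 1, 3 of 10 genes passed as higher, beside 2.67% of all genes, and 1 of 10 in line 2, beside 4.47%. As lower, 2 of 10 passed in line 3, beside 7.65%, and 2 of 10 in line 4, beside 3.21%, and line 6 had 1 of 10 higher, beside 1.48%. These shares of all genes count 1 direction, picked as that in which members passed. The shares of lines 5, 7 and 8 count both directions, so the 2 kinds are not comparable. In lines 5, 7 and 8, with 10.4%, 3.13% and 5.47% of all genes called by edgeR, 0 of 10 passed, and 5, 2 and 1 of the 10 had an unadjusted *p* under 0.05, beside 31.0%, 18.1% and 25.6% of all genes.

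**Figure D3:**
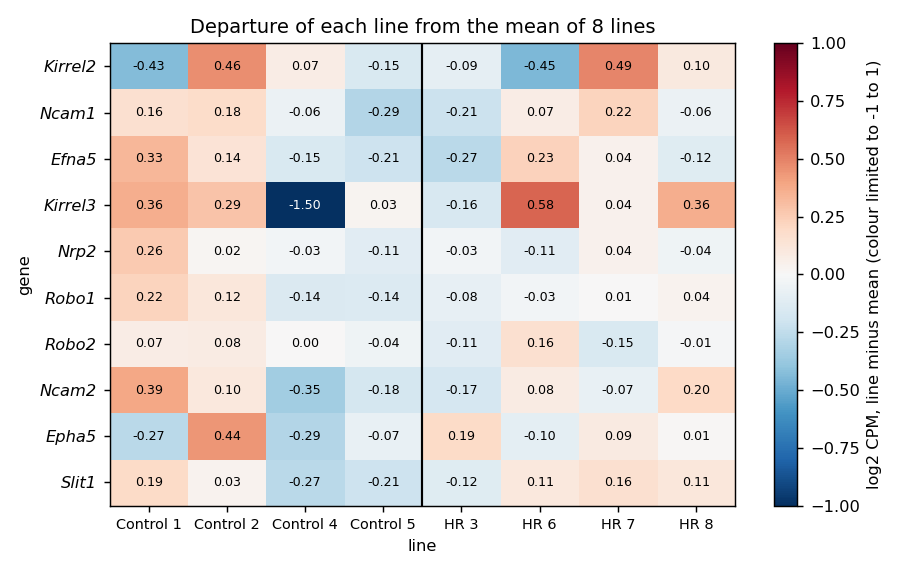
Line mean of log2 CPM minus the mean of 8 lines, for each gene (rows) and line (columns), with Control lines left and HR lines right of the rule. *Kirrel3* in Control line 4 (-1.50) is the largest departure, and *Kirrel2* departs by 0.43 to 0.49 in lines 1, 2, 6 and 7.

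The genes whose levels followed *Kirrel3* most closely were sought over the 16 libraries, with the mean of each sex removed, among 13711 genes. They were the vomeronasal receptor genes *Vmn2r107* (Pearson's *r* = 0.957) and *Vmn2r93* (*r* = 0.939), and without line 4 these values were 0.734 and 0.479 over 14 libraries. The receptor genes lie on chromosome 17 and *Kirrel3* on chromosome 9. *Vmn2r107* stood at 1.17 RPKM in the male and 2.05 in the female library of line 4, and *Vmn2r93* at 1.03 and 1.54, against 25.8 to 51.0 and 28.9 to 51.4 in the other 14 libraries. Line 4 was 21.1-fold lower in *Vmn2r107* (log2 -4.40, SE 0.19) and 31.8-fold lower in *Vmn2r93* (-4.99, SE 0.16). Members of this receptor family have near-identical copies and reads with a mismatch were dropped, so these levels are uncertain.

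**Figure D4:**
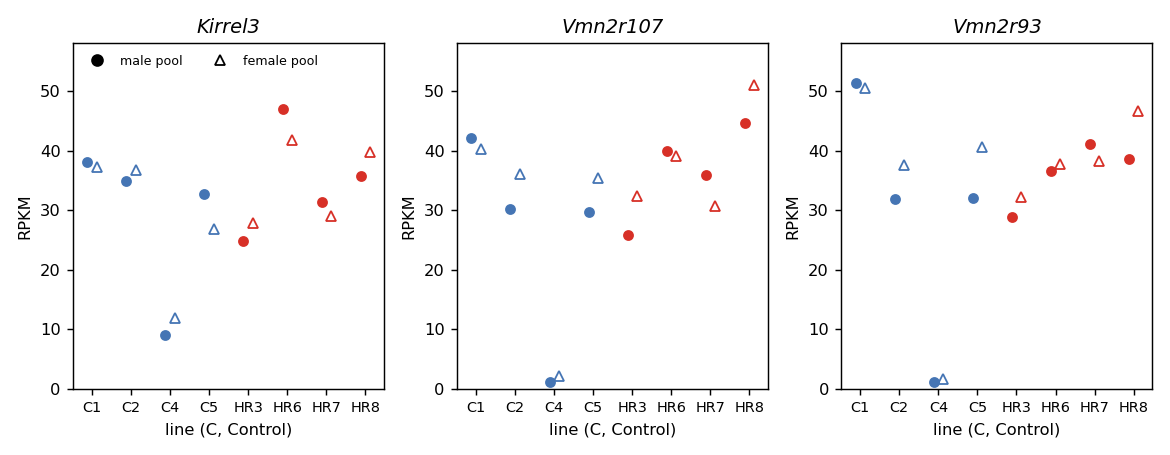
RPKM of *Kirrel3*, *Vmn2r107* and *Vmn2r93* in each line, Control (C, blue) and HR (red), with filled circles for male and open triangles for female pools. Both pools of Control line 4 are the lowest in all 3 panels, at 9.06 and 11.85 RPKM for *Kirrel3* and at 1.03 to 2.05 for the receptors.

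*Kirrel2* and *Epha5* varied more between the pools of a line than did the other genes, with median absolute differences of 0.27 and 0.42 in log2 CPM, against 0.08 to 0.23 for the others. *Kirrel2* stood at 101, 162, 99.6 and 91.3 RPKM in Control males, 85.9, 183, 179.6 and 136 in Control females, 71.3, 96.9, 154 and 142.5 in HR males and 188, 90.5, 192 and 123 in HR females. *Epha5*, a receptor gene for A-type ephrins, stood at 8.84, 13.6, 7.34 and 7.57 RPKM in Control males, 9.93, 17.0, 11.4 and 15.1 in Control females, 8.19, 10.4, 9.11 and 10.4 in HR males and 20.3, 10.6, 15.6 and 12.05 in HR females. The 2 genes were each other's nearest among the 10 (*r* = 0.750 over 16 libraries, 0.835 without line 4), and the female pool of line 3 exceeded its male pool by 1.34 in *Kirrel2* and 1.24 in *Epha5* on the log2 CPM scale.

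The 250 bases before the starts of *Kirrel2* (chr7:30457516-30457765) and *Epha5* (chr5:84417383-84417632) are shown, both on the minus strand of GRCm38.p6 and taken from RefSeq. Each of these genes was the other's nearest among the 10, although *Robo1* and *Ncam2* had a higher *r* (0.839). Whether the windows bear on the levels was not tested. The RefSeq start of *Kirrel2* lies inside the GENCODE span given above, so 175 of its 250 bases, the marked match included, fall within that span, while the *Epha5* window has 0 bases within its gene. Capitals mark matches to CANNTG, the E-box letters, searched on both strands.
Kirrel2: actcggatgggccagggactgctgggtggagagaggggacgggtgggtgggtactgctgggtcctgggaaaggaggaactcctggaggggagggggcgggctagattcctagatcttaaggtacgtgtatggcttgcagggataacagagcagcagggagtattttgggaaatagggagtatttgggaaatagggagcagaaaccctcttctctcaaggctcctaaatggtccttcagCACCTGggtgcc
Epha5: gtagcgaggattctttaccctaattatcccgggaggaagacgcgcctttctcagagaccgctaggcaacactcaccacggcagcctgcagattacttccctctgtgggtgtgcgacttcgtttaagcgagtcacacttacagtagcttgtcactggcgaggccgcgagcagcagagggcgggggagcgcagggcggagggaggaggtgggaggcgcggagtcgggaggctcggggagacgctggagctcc
The *Kirrel2* window held 1 match and the *Epha5* window 0, and 66.2% of 32851 promoter windows held at least 1. TATAAA, in 12.4% of the windows, and TGACGTCA, in 1.55%, were in neither. The *Epha5* window had 20 CG dinucleotides and 62.4% GC, against 4 and 56.4% in *Kirrel2* and medians of 6 and 52.4% over all windows. Of the 10 genes, 7 had an entry in the promoter table.

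Between the sexes, 0 of 10 genes passed the test, beside 0.188% of 16507 genes, and 1 of 10 had an unadjusted *p* under 0.05, beside 8.08%. That gene was *Epha5*, at a log2 difference of 0.50 for female over male libraries (SE 0.16, adjusted *p* = 0.333), and its female pool was the higher one in 7 of 8 lines, with differences from -0.04 to 1.24. *Efna5* was lower in the female pool in 8 of 8 lines, by 0.05 to 0.45, with a fitted log2 difference of -0.23 (SE 0.11, adjusted *p* = 0.639). With the line as a block, 0.506% of all genes passed in edgeR and again 0 of 10, with 4 of 10 at an unadjusted *p* under 0.05, beside 16.4%, and the adjusted *p* was 0.0805 for *Efna5* and 0.125 for *Epha5*. *Robo1* was lower in the female pool in 7 of 8 lines (-0.15, SE 0.07), and *Kirrel2* was higher in 5 of 8 (0.32, SE 0.22).

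**Figure D5:**
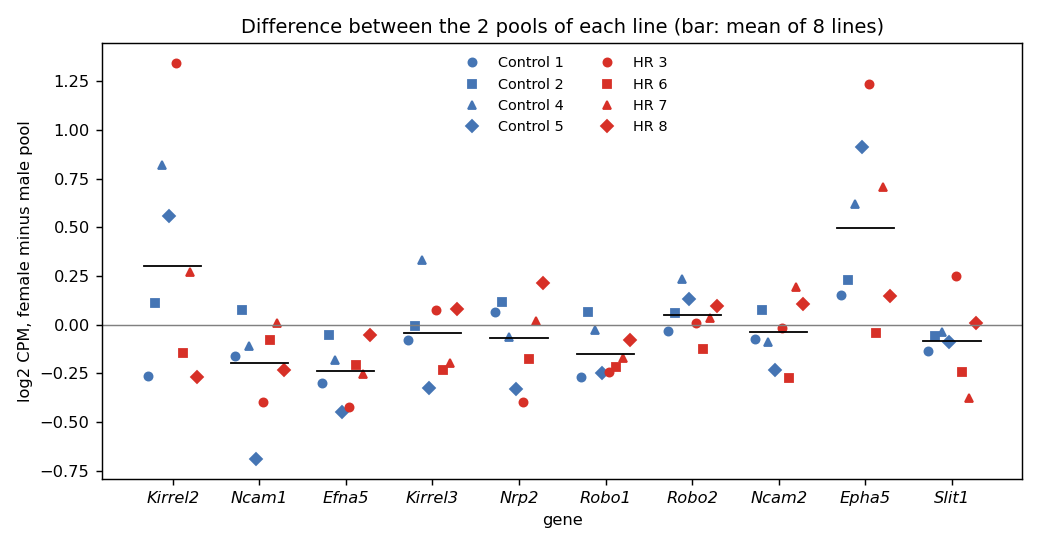
Log2 CPM of the female pool minus that of the male pool of the same line for the 10 genes, with 1 point per line, blue for Control and red for HR, and a bar at the mean of 8 lines. All 8 *Efna5* points lie below 0, 7 of 8 *Epha5* points lie above it, and line 3 is the highest for both *Kirrel2* (1.34) and *Epha5* (1.24).

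The genes nearest to the other members in level over the 16 libraries, described with no test, were *Irf2* (*r* = 0.831) and *Usp49* (0.823) for *Nrp2*, *Megf9* (0.911) and *Ncoa1* (0.906) for *Robo1*, and *Erbb2* (0.884) and *Golga2* (0.819) for *Robo2*. For *Slit1* they were *Uvrag* (0.943) and *C2cd2l* (0.926), for *Epha5* *Map1s* (0.873) and *Orc3* (0.841), and for *Efna5* *Flrt1* (0.938) and *Zfp462* (0.918). *Kirrel2* was nearest to *Arvcf* (0.932) and *Ankrd54* (0.887), *Ncam1* to *Inpp1* (0.934) and *Psmd11* (0.924), and *Ncam2* to *Akap6* (0.944) and *Dennd4a* (0.914). Among the members, *Ncam2* was nearest to *Robo1* (0.839), and *Efna5* to *Robo1* (0.783). Such values also follow differences in depth and tissue make-up between libraries.

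Guidance and adhesion genes outside the list were taken as 5 families of 88 genes. For HR against Control lines 0 of 80 tested genes passed, and 3 (3.75%) had an unadjusted *p* under 0.05, beside 3.3% of all genes. Among the lines of a linetype 41 of 83 passed, or 49.4%, beside 27.7% of all genes, and the median of the largest line difference was 0.75, beside 0.54. In the semaphorin, plexin and neuropilin family, 15 of 30 differed among lines, and the smallest *p* were those of *Sema3g* (1.76 between lines, adjusted *p* = 0.0017) and the plexin gene *Plxnd1* (0.85, adjusted *p* = 0.0054), both known from blood vessels. *Sema3g* ran from 0.88 to 3.82 RPKM over the libraries and *Plxnd1* from 7.72 to 18.1. In the family of Slit and Robo genes, 4 of 6 differed, among them *Slit3* (0.99, adjusted *p* = 0.0075) and *Srgap3* (0.56, adjusted *p* = 0.0156), the gene of a Slit-Robo GTPase-activating protein. For the ephrin family the count was 9 of 18, with *Efnb2* (0.46, adjusted *p* = 0.0079) and *Epha4* (1.37, adjusted *p* = 0.0124). Of the other immunoglobulin adhesion genes 8 of 17 passed, with *Chl1* (1.35, adjusted *p* = 0.0051) and *Alcam* (1.96, adjusted *p* = 0.0057), and of the netrin family 5 of 12, with *Unc5a* (2.36, adjusted *p* = 0.0065) and *Ntng2* (1.87, adjusted *p* = 0.0081). All 4 endothelium markers also differed among lines (adjusted *p* 0.0151 to 0.0353), as did 2 of 5 keratin and 1 of 4 cartilage and bone markers. The endothelium sum ran from 27.2 to 88.2 CPM with its highest value in the female pool of Control line 5, where *Sema3g* and *Plxnd1* were highest too, and the part of these markers was not tested.

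In the families, the smallest *p* for HR against Control was that of *Dcc*, a netrin receptor gene, at a log2 fold change of -1.12 (SE 0.40, adjusted *p* = 0.9997). It was low in all libraries, with 4 to 51 counts. Values below 0 were found for 11 of 12 genes of the netrin family, 21 of 30 of the semaphorin, 13 of 17 of the ephrin, 5 of 6 of the Slit and Robo and 9 of 15 of the immunoglobulin adhesion family, beside 48.9% of all genes tested. The 4 endothelium markers lay at -0.41 to -0.30 in the same contrast (adjusted *p* = 0.9997 in edgeR), and their part was not tested. *Ntng1* had -0.40 (SE 0.27), *Sema4c* 0.13 (SE 0.06), *Sema3d* -0.37 (SE 0.22), *Robo4* -0.46 (SE 0.34), *Slit3* 0.08 (SE 0.16), *Efnb2* -0.17 (SE 0.09), *Epha1* -0.19 (SE 0.10), *Dscaml1* -0.47 (SE 0.22) and *Nrcam* -0.23 (SE 0.11), all with adjusted *p* = 0.9997. Between the sexes, 0 of the 80 genes passed in edgeR, and 3 had an unadjusted *p* under 0.05.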

How the data were processed

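Total RNA of 16 VNO pools was depleted of ribosomal RNA, made into directional libraries and read in single-end reads of 75 nt. The authors aligned reads to GRCm38 with STAR 2.6.1d, accepting no mismatch and no second location. The deposited count tables hold reads per gene without normalization, and the counting tool is not given in the sources used here. The deposited RPKM tables (Cufflinks) were scaled by the authors per sex, and the female table lay 0.0584 higher on the log2 scale against CPM, so levels of the sexes were compared as counts. Of 24411 listed genes, 4 entries with repeated, date-like names were left out. In males, 16.1 to 17.7% of reads were unmapped, 16.7 to 18.5% fell on no gene and 0.84 to 1.10% were ambiguous, and these stayed out of the library sizes.

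Counts were tested in R 4.3.3 with edgeR 4.0.16 (TMM, filterByExpr at a minimum count of 10, quasi-likelihood), adjusted by Benjamini-Hochberg over all genes tested with a threshold of 0.05. SE is the absolute log2 fold change over the root of *F*. log2 CPM used a prior count of 2. DESeq2 1.42.0, limma 3.58.1 on voom weights or log2(RPKM + 1), other filters and the omission of each line were alternatives. Male and female deviations of a line correlated at 0.321 (line 4) to 0.708 (line 8). Values between different lines are not given here, so the pairing rests on the line numbers in the sample titles. The line was used as a block in further fits. The chi-square per degree of freedom between libraries of a group was 32.5 to 818, so none was a copy of another in its group. Pairs across groups were not compared. In Control males the chi-square was 81.9 for lines 1 and 2 and 91.8 for lines 4 and 5, against 275 to 818 across pairs. In HR males it was 97.2 for lines 3 and 6 and 32.5 for lines 7 and 8, against 283 to 502. HR females followed the same pairs (152 and 56.4, against 196 to 442), but in Control females line 2 was nearest to line 4 (42.8). What divides the lines was not tested. A pool is the replicate. In the main tests of HR against Control, of the sexes and of their interaction, the male and female pools of a line count as separate. Their *p* values measure the spread between lines and pools together. Libraries of a line correlated at 0.491 in limma-voom, so the SE of HR against Control may be too small (*Kirrel2* 0.22, and 0.28 with the block). Where the line is a term, the *p* values measure only the spread between pools of a line. The scripts were tested on simulated data.

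Members and gene families were chosen with earlier results of these data known. Named genes are the members, the 2 genes of each family with the smallest *p* in each contrast, the 2 genes with the highest *r* to each member among those with a mean log2 CPM of at least 1, and marker genes. Contrasts of single lines were added after the values were seen. One marker gene is not reported here.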

Additional observations from a re-analysis of the deposited data

Results flagged for a closer look

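Among 40 groups of 4 libraries (10 genes in 4 groups), 2 held a library far from the other 3 by Dixon's ratio of its gap to the whole range, where about 1 group in 20 is picked out by chance. *Kirrel3* was lowest in the Control male library of line 4, with a ratio of 0.895 and 4.997 log2 CPM, against 6.85 to 7.07 in the other Control males. *Kirrel2* was highest in the Control male library of line 2, with a ratio of 0.844 and 8.98 log2 CPM (8.13 to 8.27 in the others).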

How the results depend on the processing

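For HR against Control lines, DESeq2 called 30 genes, limma-voom with line as a replicate block 0, edgeR on line sums 0, limma on line means of log2(RPKM + 1) 0, with a pseudocount of 0.1 also 0, and with a mean RPKM of at least 0.5 called 1, beside 4 in the main test. Omitting each line in turn gave 1 to 17 genes (0 to 1 in males, 0 to 2 in females). DESeq2 called 13 genes in males and 6 in females. None of the 18 settings called any of the 10 genes here. The log2 fold change of *Ncam1* turned to 0.0109 with voom and the block, and to 0.0125, 0.0128 and 0.0125 in the 3 RPKM fits, where *Ncam2* turned to 0.0162, 0.0186 and 0.0162. With each line left out, 7 genes changed sign: *Nrp2* ranged from -0.12 to 0.0002872, *Robo1* from -0.0919 to 0.0269, *Kirrel2* from -0.12 to 0.22, *Epha5* from -0.001185 to 0.27, *Efna5* from -0.16 to 0.0421, *Ncam1* from -0.0846 to 0.0669 and *Ncam2* from -0.11 to 0.14. Between the sexes, 19 genes passed without a filter, 177 in DESeq2, 87 with the line as a block in edgeR and 253 with that block in limma on log2(RPKM + 1), beside 31 (13 to 25 without each line). *Kirrel3* and *Ncam2* turned to 0.0369 and 0.0164 without the female Control library of line 4 and to 0.0170 and 0.0166 in the blocked RPKM fit, and *Ncam2* ranged from -0.0669 to 8.943e-05 without each line. The block changed no other call. Among lines, DESeq2 called 7309 genes and 7 of the 10 members, and 3065 to 4967 genes passed without each line. *Kirrel3* (0.75 to 1.87) and *Efna5* (0.50 to 0.55) passed in 8 of 8 such fits, *Ncam2* in 7 and *Slit1* in 1. The smallest count of a member in a library was 545, and each linetype had only 4 lines. The blocked RPKM fit of the sexes holds the 0.0584 log2 by which the female table lay higher. Its values for *Kirrel3* and *Ncam2* include that offset, and the blocked count fit in edgeR gave -0.046 and -0.039. The cause of the other shifts was not tested.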
